A study of Mus musculus with 4 samples.

Results

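B lymphocyte nuclei of the injured mouse heart were described here, across 4 single-nucleus RNA libraries. A nucleus was taken as a member if it held 500 or more UMIs (counted transcript molecules), 300 or more genes, under 5% mitochondrial UMIs and under 4% of UMIs from the cardiomyocyte genes Ttn, Ryr2 and Myh6. It also needed 3 or more UMIs over Pax5, Bank1, Ikzf3, Pou2af1 and Bcl11a, from at least 2 of these 5 genes, and 1 or fewer over Themis, Bcl11b, Mrc1, Pdgfra and Cdh5, which mark T cells, macrophages, fibroblasts and endothelium. This rule found 829 nuclei among the 27800 that passed the quality and cardiomyocyte limits (the kept nuclei), and among 39696 barcodes in all. The members numbered 356 and 162 in injured-father libraries 1 and 2, and 213 and 98 in uninjured-father libraries 1 and 2.

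Each library held 1 whole heart of a male, wild-type C57BL/6J mouse. All 4 mice, controls included, had themselves received a cardiac injury at day 1 after birth and were killed 21 days later. The groups differed in the father: 2 libraries came from offspring of fathers with a cardiac lesion and 2 from offspring of uninjured fathers, so the comparison asks whether a paternal lesion alters the injured heart of the offspring. Hearts were snap frozen, and a Ter119 antibody was used in sorting to remove blood cells, an antibody that recognises the erythroid lineage and not lymphocytes. No uninjured heart is among the samples used here, and the identity of the fathers and litters is not given in the sources used here, so p-values measure only the spread between these hearts. No barcode was shared by members of different libraries, although 157 barcodes were shared between pairs of libraries over all nuclei.

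B lymphocytes recognise antigen through a surface immunoglobulin that signals through the CD79A and CD79B chains, the kinases LYN, SYK and BTK, the adaptor BLNK and phospholipase PLCG2. They present antigen on MHC class II molecules and live on signals through the BAFF receptor. The heart holds a population of naive-like B cells that is known to exchange with the blood, and B cells are known to influence inflammation after cardiac injury. PAX5 and EBF1 are transcription factors that set and hold B cell identity.

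Promoter sequences were read for the 15 genes that were highest in these nuclei relative to both T/NK and macrophage nuclei by the rule given with the methods, to show regulatory letters beside the values that follow. RefSeq windows of 250 bases before a gene's start (GRCm38.p6) were on hand for 12 of the 15 genes, as 15 windows. The letters TCCC, any 2 bases and GGGA, to which EBF1 is known to bind and which read the same on both strands, were in 2 of these windows, those of Cd22 and Chst3. No window held the octamer ATGCAAAT on either strand, the letters bound by POU2F2 and its cofactor POU2AF1. Both sequences were chosen after the values were seen. Capitals mark the EBF letters, and both are printed on the minus strand, that of the genes. The first is a stretch of 30 bases of Cd22, at chr7:30879058-30879087, which lies 59 to 30 bases before the RefSeq start and inside an intron of longer GENCODE M21 transcripts of the gene. The second is the whole window of Chst3, at chr10:60219261-60219510, over which GENCODE M21 annotates no feature.
Cd22: tcctgcaagaTCCCTGGGGActcacacaga
Chst3: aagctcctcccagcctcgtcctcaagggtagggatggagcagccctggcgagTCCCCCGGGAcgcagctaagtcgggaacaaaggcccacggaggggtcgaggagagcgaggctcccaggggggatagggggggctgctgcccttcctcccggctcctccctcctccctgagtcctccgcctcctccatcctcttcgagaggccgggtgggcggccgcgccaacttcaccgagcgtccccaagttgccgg
The EBF letters were in 0.779% of all 32851 promoter windows of this length, in 1.02% of the 5368 windows of genes tested in both comparisons, and in 5 of the 279 windows (1.79%) of genes higher in B nuclei than in both classes. The octamer was in 1.60% of all windows, 1.23% of the tested ones and again 5 of the 279 (1.79%). These matches describe letters in a window and are not evidence of binding.

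The 5 genes of the rule are given as a description only, since they chose the nuclei. Pax5 was at 1439 and 1637 CPM (UMIs of a gene per 1000000 UMIs summed over the B nuclei of a library) in the injured-father libraries and at 1248 to 1626 in the uninjured-father ones. Bank1, a scaffold of B cell receptor signalling, was at 2145 to 2830 CPM over the 4 libraries. Members held a median of 11, 11, 10 and 9 UMIs over the 5 genes in injured-father libraries 1 and 2 and uninjured-father libraries 1 and 2. Just inside the threshold, at exactly 3 UMIs, lay 17, 4, 9 and 8 nuclei. Just outside, with 2 UMIs from 2 genes, lay 44, 9, 22 and 6.

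The label held for the summed nuclei when it was checked against B cell genes that the rule did not use. Sums do not show the identity of each member. Pax5 is a gene of the rule, so its detection in members is a description and no check of the label. A Pax5 UMI was seen in 297 of 356, 142 of 162, 183 of 213 and 82 of 98 members of the 4 libraries. Cd79a, the signalling chain of the B cell receptor, was at 192, 229, 189 and 219 CPM in B nuclei of the 4 libraries, in the order given above. In macrophage nuclei it had 1 UMI in all and in T/NK nuclei 2 UMIs in all. The ratio of B to T/NK nuclei was 85.6 (exact 95% counting interval 23.5 to 710). Ms4a1, which encodes CD20, was at 198, 343, 320 and 230 CPM in B nuclei and at no more than 6.82 CPM in any other sum. Both of these genes were thus higher in B nuclei of all 4 libraries than in any T/NK or macrophage sum. The immunoglobulin heavy and light chain constant genes are not analysed here.

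Single nuclei were shallow, with a median of 1304.5, 1382, 1262 and 1211.5 UMIs per B nucleus. A Cd79a UMI was seen in 25.4% to 30.2% of B nuclei per library, and a Cd22 UMI in 23.5% to 41.9%. How far depth accounts for these shares was not tested. In macrophage nuclei, with medians of 1443 to 1815.5 UMIs, the shares were 0% to 0.388% for Cd79a and 0.337% to 0.633% for Cd22. After each nucleus was thinned to 1000 UMIs, which left out shallower nuclei and kept 260, 128, 158 and 65 B nuclei, the shares in B nuclei were 16.9% to 21.5% for Cd79a and 15.4% to 29.2% for Cd22.

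**Figure D1:**
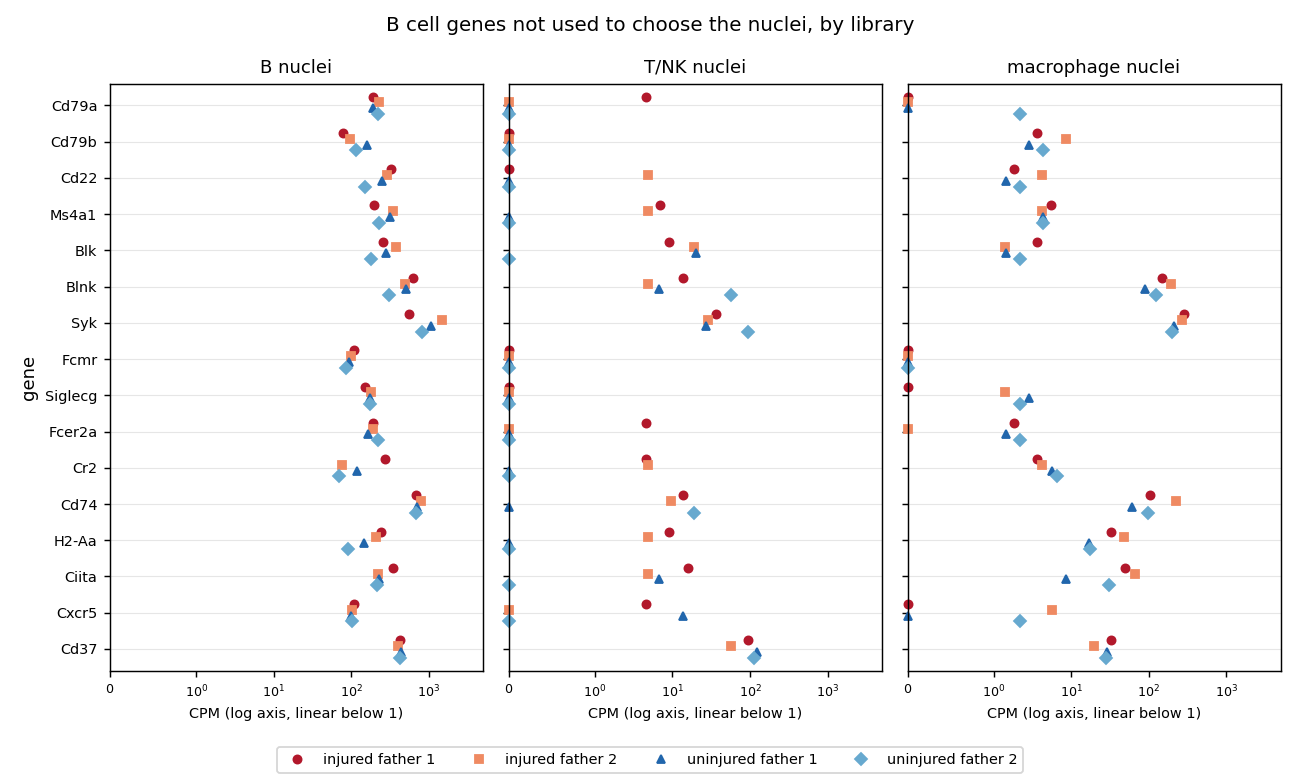
CPM of 16 B cell genes that the rule did not use (rows), on a log axis that is linear below 1, in the summed B, T/NK and macrophage nuclei of each library (1 point per library). Cd79a lies at 189 to 229 CPM in B nuclei and at no more than 4.55 CPM in the other sums, whereas Blnk and Syk are also present in macrophage nuclei.

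T/NK nuclei (410) and macrophage nuclei (1127) of the same hearts were chosen by like rules on their own marker genes and served as the comparison. Summed counts were compared within hearts with edgeR's quasi-likelihood test, and a gene was called at a Benjamini-Hochberg adjusted p under 0.05. Against T/NK nuclei 398 of 5028 genes tested were called higher in B nuclei (7.92%) and 344 lower (6.84%). Against macrophage nuclei 898 of 7491 were called higher (12%) and 1160 lower (15.5%). Of 4978 genes tested in both, 266 were higher in both (5.34%) and 81 lower in both (1.63%). The nuclei were chosen from these same counts, so these calls describe which genes accompany the chosen markers and are no independent test of identity. DESeq2 called fewer genes, 475 against T/NK and 1318 against macrophage nuclei, of which edgeR had called 400 and 1209.

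The 15 genes highest in B nuclei over both classes were led by surface proteins of B cells. Fcmr, the receptor for the Fc part of IgM, was at 109, 100, 92.8 and 86.3 CPM in B nuclei. It had no UMI in T/NK or in macrophage nuclei, so it was at least 28.5-fold and at least 81.3-fold higher in B nuclei, against a floor of 3 counts over all 4 libraries. Siglecg, an inhibitory sialic acid receptor, was at 148, 182, 177 and 173 CPM and at least 46.5-fold above T/NK nuclei. Cd22, another inhibitory sialic acid receptor and the gene of the first sequence above, was at 322, 290, 249 and 150 CPM, with 1 UMI in all T/NK nuclei and a log2 fold change of 6.55 (SE 0.29) over macrophage nuclei (edgeR, adjusted p = 7.42e-11). Fcer2a, the low-affinity IgE receptor CD23 of mature follicular B cells, was at 192, 193, 165 and 219 CPM. Fcrl1, an Fc receptor-like protein, was at 171, 172, 159 and 132 CPM. These 5 genes showed little spread between hearts relative to their distance from the other classes.

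Others among the 15 are less often used as B cell markers. Chst3, a sulfotransferase that modifies chondroitin and the gene of the second sequence above, was at 751, 912, 907 and 581 CPM in B nuclei and 0 to 20.3 CPM in T/NK nuclei. Its log2 fold change was 5.83 (SE 0.25) over T/NK and 6.93 (SE 0.26) over macrophage nuclei (edgeR, adjusted p = 1.39e-15 and 1.54e-11). Agbl1, which encodes a deglutamylating carboxypeptidase, was at 336, 479, 1066 and 495 CPM and at 75.1 CPM or less in the other sums. Its highest B value was over 3 times its lowest, so it varied more between hearts than the receptors did. The calcium channel genes Cacna1i and Cacna1e, the orexin receptor gene Hcrtr2, and Kynu, an enzyme of tryptophan breakdown, were also among the 15, as were Cd79a, Ms4a1 and H2-DMb2. Cacna1e was at 219 to 447 CPM, Kynu at 186 to 239, Cacna1i at 69 to 150 and Hcrtr2 at 59 to 92. 

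The 6 genes lowest in B nuclei relative to both classes were Fyb, Lcp2, Iqgap2, Otulinl, Atp8b4 and Vsir. In this order, their log2 fold changes against T/NK nuclei were -3.52, -4.02, -3.04, -3.12, -3.04 and -2.19. Among members with at least 1 Pax5 UMI they were -4.57, -4.89, -3.53, -3.85, -4.18 and -2.17. Whether members without a Pax5 UMI include other cell types was not tested. Fyb and Lcp2 encode adaptors of T cell and myeloid receptor signalling (ADAP and SLP-76). Fyb was at 68.1, 46.5, 41.9 and 115 CPM in B nuclei, at 657 to 833 CPM in T/NK nuclei and at 486 to 763 CPM in macrophage nuclei. Lcp2 was at 19.7, 25, 8.98 and 5.75 CPM in B nuclei and at 139 CPM or more in all other sums. Its log2 fold change was -4.02 (SE 0.28) against T/NK nuclei (edgeR, adjusted p = 7.5e-12). Blnk, the B cell counterpart of this adaptor, was at 619, 497, 503 and 311 CPM in B nuclei and at 4.8 to 56.3 CPM in T/NK nuclei. Against T/NK nuclei the 2 adaptors thus lay in opposite directions. Blnk was also present in macrophage nuclei.

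**Figure D2:**
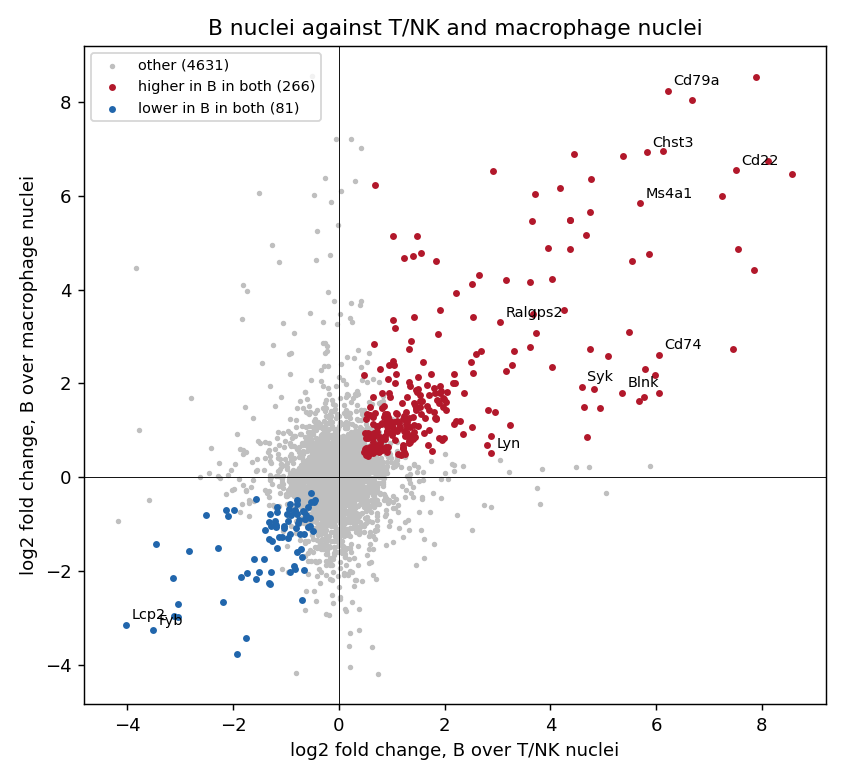
Log2 fold change of B over T/NK nuclei (horizontal) against that of B over macrophage nuclei (vertical), 1 point per gene tested in both comparisons, with genes called higher (266) or lower (81) in B in both coloured. The comparisons share the B nuclei, so the axes are not independent, and the fitted values of genes with hardly a count in the other class depend on the prior count.

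Genes of the B cell receptor and its signalling were mostly higher in B nuclei. Of 29 tested against T/NK nuclei, 25 were called higher and 2 lower (Fyn and Pik3cd), with a median log2 fold change of 3.84, against -0.01 over all genes tested. Against macrophage nuclei 22 of 33 were called higher and 4 lower (Vav3, Inpp5d, Fcgr2b and Cd81), with a median of 1.48 against 0.01. Over all genes tested, 7.92% were called higher and 6.84% lower against T/NK nuclei, and 12% and 15.5% against macrophage nuclei. Plcg2 was at 580, 547, 599 and 414 CPM in B nuclei, 9.1 to 37.5 in T/NK and 161 to 209 in macrophage nuclei. Lyn was at 1202, 1616, 1641 and 1041 CPM in B nuclei, and its log2 fold change was 2.88 (SE 0.18) over T/NK but 0.51 (SE 0.13) over macrophage nuclei (edgeR, adjusted p = 0.0073 for the second).

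Among 29 B lineage transcription factors, 10 of the 22 tested were called higher and 2 lower (Ikzf1 and Klf3) against T/NK nuclei. Against macrophage nuclei 15 of 26 were called higher and 3 lower (Spi1, Xbp1 and Zeb2). The shares over all genes tested were 7.92% higher and 6.84% lower against T/NK nuclei, and 12% and 15.5% against macrophage nuclei. Ebf1 was at 5373, 6706, 6725 and 4922 CPM in B nuclei. It was also at 949 to 1647 CPM in T/NK and 1060 to 1639 CPM in macrophage nuclei, and it is known to be expressed in pericytes and fibroblasts of the heart, so its presence alone does not mark these nuclei. Bach2, which holds back plasma cell differentiation, was at 3418, 4393, 5153 and 3065 CPM in B nuclei, at 1389 to 1789 in T/NK and at 307 to 447 in macrophage nuclei. Spib was low, at 22.7, 57.2, 35.9 and 40.3 CPM, but had no UMI in T/NK nuclei (at least 9.77-fold) and 1 in macrophage nuclei. Pou2f2, the factor of the octamer letters, was at 449 to 551 CPM, with a log2 fold change of 3.24 (SE 0.23) over T/NK nuclei.

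MHC class II genes were higher in B nuclei than in T/NK nuclei and than in macrophage nuclei taken as a whole. The macrophage rule did not choose for these genes, and a Cd74 UMI was seen in 6.4% to 22.5% of macrophage nuclei per library. Macrophage nuclei with and without MHC class II were not told apart. All 8 genes tested against T/NK nuclei were called higher, beside 7.92% of all genes tested. Against macrophage nuclei 8 of 9 were called higher, beside 12% of all genes tested. The remaining one, H2-DMa, had a log2 fold change of 0.55 (SE 0.37). The median was 5.30 against T/NK nuclei (4.97 with H2-DMb2, which has no UMI there, at its lower bound) and 2.62 against macrophage nuclei. Cd74, the invariant chain, was at 686, 786, 695 and 690 CPM in B nuclei, 0 to 18.8 in T/NK and 60 to 226 in macrophage nuclei. Ciita, the master regulator of the class, was at 342, 222, 228 and 213 CPM in B nuclei and at 8.57 to 66.5 in macrophage nuclei. H2-Ob, a subunit of the peptide-loading inhibitor found in B cells, was at 135, 147, 189 and 184 CPM and at no more than 13.6 CPM in the other sums.

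The homing genes held receptors of recirculating B cells. Of 12 tested against T/NK nuclei 2 were called higher (Cxcr5 and Cnr2) and 4 lower (S1pr1, Itgb7, Itgal and Selplg). Against macrophage nuclei 9 of 13 were called higher and 1 lower (Itgb1). The shares over all genes tested were 7.92% higher and 6.84% lower against T/NK nuclei, and 12% and 15.5% against macrophage nuclei. Cxcr5, the receptor that leads B cells to follicles, was at 107, 104, 98.8 and 104 CPM, with hardly a difference between hearts. Ccr7 was at 22.7 to 67.9 CPM and S1pr1, needed to leave lymphoid tissue, at 60.8 to 68.9. Cxcr3, a chemokine receptor of activated lymphocytes, had no UMI in B nuclei.

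Survival and co-stimulation genes were mixed. Against T/NK nuclei 5 of 9 tested were called higher and 1 lower (Bcl2), and against macrophage nuclei 7 of 14 higher and 3 lower (Cd86, Bcl2l1 and Tlr7). Of all genes tested, 7.92% were called higher and 6.84% lower against T/NK nuclei, and 12% and 15.5% against macrophage nuclei. Cd40, the receptor for T cell help, was at 112, 100, 80.8 and 97.8 CPM in B nuclei and 13.1 to 25.7 in macrophage nuclei. Cd86, a co-stimulatory ligand, was at 60.8 to 83.8 CPM in B nuclei and 220 to 285 in macrophage nuclei. Tnfrsf13c, the BAFF receptor, was at 53, 57.2, 26.9 and 11.5 CPM, with no UMI in T/NK nuclei and 1 in macrophage nuclei. Among 12 cytokine genes, Ltb (lymphotoxin beta) was at 132, 92.9, 102 and 74.8 CPM and Tgfb1 at 144 to 204, whereas Il10, Csf2 and Ccl22 had no UMI in the 1448317 UMIs of B nuclei. A count of 0 allows up to 2.07 CPM over the 4 libraries (3 counts, counting error only).

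Genes of mature follicular B cells were present, and several defining genes of later or earlier stages had no UMI. All 6 follicular genes tested were called higher than in macrophage nuclei, and 4 higher than in T/NK nuclei, beside 12% and 7.92% of all genes tested. Cd55, a complement regulator, was at 235, 361, 320 and 316 CPM. Gcsam, a gene of germinal centre B cells, had no UMI, and Rgs13 had 8 in all. Of the plasma cell genes, Mzb1 and Tnfrsf17 had no UMI, Jchain had 5 UMIs, all in injured-father library 1, and Prdm1 had 14 in all. Rag1, Rag2, Vpreb1, Vpreb2 and Igll1, which belong to B cell precursors, had no UMI, and Vpreb3 had 8. The whole lists were not at 0, and their sums were in part as high in other classes. The 11 plasma cell genes summed to 772, 665, 910 and 874 CPM in B nuclei, against 563 to 873 in T/NK and 1120 to 1327 in macrophage nuclei, and most of this was Fndc3b, with 714 UMIs in B nuclei. The 13 precursor genes summed to 231 to 348 CPM, mostly Lef1 (168 UMIs) and Erg (139), against 1824 to 2561 in T/NK and 170 to 200 in macrophage nuclei. The 9 germinal centre genes summed to 129 to 219 CPM, mostly Bcl6 (171 UMIs), against 149 to 188 and 194 to 247 in the other classes. A count of 0 is limited by depth as given above, and does not show that a few such cells were missing.

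Markers of other B cell subsets were present to different degrees. The 9 marginal zone genes summed to 784, 747, 758 and 633 CPM in B nuclei, against 282 to 371 in T/NK and 589 to 679 in macrophage nuclei. Of 3 tested against T/NK nuclei 2 were called higher (Notch2 and Cr2), and of 6 against macrophage nuclei 2 were called higher and 2 lower. Over all genes tested, 7.92% were called higher against T/NK nuclei, and 12% higher and 15.5% lower against macrophage nuclei. Notch2, a receptor needed for marginal zone B cells, had 585 UMIs in B nuclei and Cr2, the complement receptor CD21, had 252. The whole marginal zone list had 1090, and Mzb1, which is also in it, had none. The B1 genes summed to 748 to 889 CPM in B nuclei, 861 to 1142 in T/NK and 564 to 834 in macrophage nuclei. Of this list, Cd5 had 9 UMIs, Bhlhe41 16 and Plac8 94 over all B nuclei, while Sox5, with 976 UMIs, was at 631 to 749 CPM in B nuclei and at 427 to 777 CPM in the other classes. Proliferation genes were lower than in macrophage nuclei. Mki67 was at 7.57, 3.57, 2.99 and 0 CPM in B nuclei against 22.9 to 112 in macrophage nuclei, and Bub1, Ccnb1, Ccna2 and Cdk1 had no UMI in B nuclei. The 22 cell cycle genes summed to 254, 154, 201 and 219 CPM in B nuclei and 456 to 1085 CPM in macrophage nuclei. Of 5 tested against macrophage nuclei 4 were called lower, beside 15.5% of all genes tested. The sums were 394, 724, 237 and 113 CPM in T/NK nuclei. In all kept nuclei that were not members they were 308, 217, 232 and 243 CPM. The 1 gene tested against T/NK nuclei was not called.

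**Figure D3:**
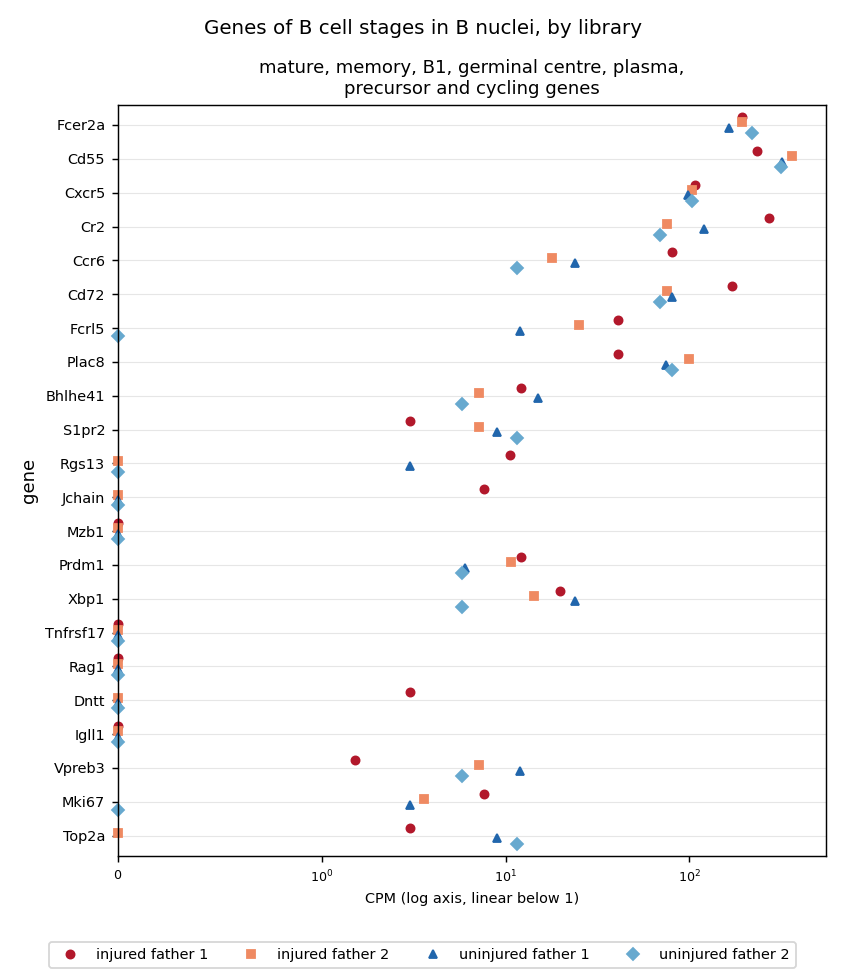
CPM of 22 genes of B cell stages and subsets (rows) in the summed B nuclei, 1 point per library, on a log axis that is linear below 1. Fcer2a, Cd55 and Cxcr5 lie at 98.8 to 361 CPM, Mzb1, Tnfrsf17, Rag1 and Igll1 at 0, and Cr2, Ccr6 and Cd72 are highest in injured-father library 1.

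Marker lists of other cell types were read in the same nuclei. Cardiomyocyte genes (12 of 12 in the files) summed to 10586, 13330, 11966 and 15560 CPM in B nuclei, within a range of 6965 to 15560 over B, T/NK and macrophage sums. All 9 tested lay above T/NK and above macrophage nuclei in fitted fold, with 1 and 3 called, beside 7.92% and 12% of all genes tested. Endothelial genes summed to 1464 to 1637 CPM and fibroblast genes to 670 to 1219. The 16 T/NK genes summed to 34.5 to 206 CPM in B nuclei, against 7245 to 9446 in T/NK nuclei, with Cd3d and Klrb1c at 0. The 13 macrophage genes summed to 174 to 332 CPM against 5737 to 8668 in macrophage nuclei, with Fcgr1 at 0. The 6 plasmacytoid dendritic genes summed to 218, 107, 129 and 97.8 CPM in B nuclei, above macrophage nuclei (56.6 to 75) and below T/NK nuclei of the same library (142 to 232). Most of this came from Pacsin1, at 147, 32.2, 53.9 and 11.5 CPM, and Cox6a2, at 36.3 to 80.5. Of the others, Klk1 and Cd300c were at 0, and Siglech was at 21.2 CPM in injured-father library 1 and at 0 in the others. Scrublet marked 18.0%, 14.8%, 13.6% and 33.7% of the B nuclei as doublets in the 4 libraries, in the order used above, against 9.88% to 15.3% of all nuclei scored in a library. They were kept in the values given here. Without them 815 genes were called against T/NK nuclei and 2157 against macrophage nuclei, 0 were called between the father groups, and the difference in the share of B nuclei given next was 1.20 points. The part of free RNA in the values was not tested.

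The share of B nuclei was 5.03% and 2.06% of kept nuclei in the injured-father libraries and 2.89% and 1.78% in the uninjured-father libraries. Exact 95% binomial intervals were 4.54% to 5.57%, 1.76% to 2.40%, 2.52% to 3.30% and 1.45% to 2.17%, for counting error only. The injured-father library 1 was highest, and the other injured-father library lay between the uninjured-father ones, so the groups overlapped. The means were 3.55% ± 2.10 (SD, n = 2) and 2.33% ± 0.784 (SD, n = 2), a difference of 1.21 percentage points (exact permutation test, two-sided, p = 0.667). Without injured-father library 1 the difference turned to -0.271 points.

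The order of the libraries stayed when nuclei were thinned to 1000 UMIs, at 4.14%, 1.67%, 2.22% and 1.27% of the 6080, 7235, 6577 and 4568 nuclei deep enough. T/NK nuclei made up 2.97% and 1.20% of kept nuclei in the injured-father libraries and 1.03% and 0.545% in the uninjured-father ones. These groups did not overlap (difference 1.30 points, exact permutation test, two-sided, p = 0.33, the smallest that 2 against 2 can give). Macrophage nuclei made up 3.62% and 4.02% against 4.03% and 4.69%. Injured-father library 1 was thus highest in both lymphocyte classes and lowest in macrophage nuclei. These are shares of captured nuclei, so fewer B nuclei and more nuclei of other types cannot be told apart.

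**Figure D4:**
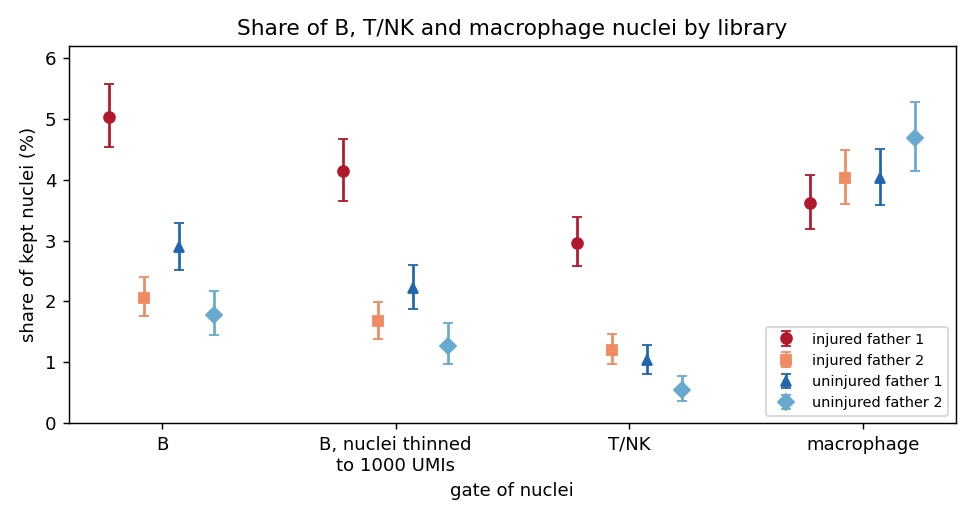
Share of kept nuclei (%, vertical axis from 0) in each library for B nuclei, B nuclei after thinning to 1000 UMIs, T/NK nuclei and macrophage nuclei, with exact 95% binomial intervals as bars. Injured-father library 1 holds the highest B share (5.03%), and the other 3 libraries lie between 1.78% and 2.89%.

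Gene expression in B nuclei was compared between offspring of injured and of uninjured fathers over the 4 summed libraries (660713, 279740, 333959 and 173905 UMIs). No gene of 5940 tested passed an adjusted p of 0.05 by edgeR's quasi-likelihood test (0% called), and none of 14780 by DESeq2. An unadjusted p under 0.05 was found for 248 genes by edgeR (4.18%) and for 59 by DESeq2. The groups did not overlap for 1943 genes (32.7%), 959 higher and 984 lower in offspring of injured fathers. The smallest adjusted p by edgeR was 0.396, and what follows is given as values. The count of calls was also 0 without injured-father library 1 or without uninjured-father library 1. It was 37 (31 higher, 6 lower) without injured-father library 2, which leaves that group to library 1 alone, and 3 (all lower) without uninjured-father library 2. In those fits the lone library is assumed to vary like the other group.

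Slc15a2, which encodes the peptide transporter PEPT2, had that smallest p. It too had been seen in earlier results of these data, so its direction is not independent support. It had 32 and 16 UMIs in B nuclei of the injured-father libraries (48.4 and 57.2 CPM) and 0 in both uninjured-father ones. It was at least 8.64-fold higher against a floor of 3 counts over the group, while the test gave an unadjusted p of 6.67e-05. The UMIs came from 30 of 356 and 13 of 162 nuclei (8.43% and 8.02%), with at most 2 in 1 nucleus, so they were spread over many nuclei. With no filter on low counts it passed the threshold by edgeR (adjusted p = 2.77e-05), and over all alternatives the adjusted p ranged from 2.77e-05 to 1.00. The gene lay the same way in the other classes. T/NK nuclei had 32 and 8 UMIs against 0 and 0 (at least 4.13-fold), and macrophage nuclei 20 and 22 against 1 and 2 (ratio 12.9, exact 95% counting interval 4.11 to 64.9).

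The other genes with the smallest p were as follows. Tenm4, a teneurin adhesion protein, was at 123 and 71.5 CPM against 21 and 17.3 (log2 fold change 2.35, SE 0.46, adjusted p = 0.67 by edgeR). St8sia6, a sialyltransferase, was at 86.3 and 42.9 against 12 and 5.75 CPM, with 1 to 57 UMIs per library. In the other direction, Ptn, the growth factor pleiotrophin, was at 15.1 and 14.3 against 65.9 and 51.8 CPM. Esyt1, a membrane tether, was at 53 and 39.3 against 135 and 109 CPM, and Pard6g, a polarity protein, at 6.05 and 10.7 against 32.9 and 63.3. The groups did not overlap for any of these 6 genes, which were chosen by their p from this comparison, and most rest on few UMIs.

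Camk1d, Lars2, Cdk8, Cmss1 and Gphn were looked up because earlier results of these data had shown them to move in most cell classes, and the same limit holds for them. Camk1d, a calcium-dependent kinase, was at 9649 and 8390 CPM in B nuclei of the injured-father libraries and at 4974 and 4433 in the others. Its log2 fold change was 0.94 (SE 0.29, unadjusted p = 0.00605 by edgeR, not past the threshold after adjustment). By DESeq2 the adjusted p of Camk1d was 0.065, also not past the threshold. In macrophage nuclei it was at 9776 and 8778 against 4962 and 4710 CPM, and the difference between the classes in this effect was 0.02 (SE 0.23, log2). Lars2, a mitochondrial leucyl-tRNA synthetase, was at 1831 and 1330 against 1132 and 673 CPM, and its groups did not overlap either. Cmss1 was at 3502 and 2499 against 2955 and 1558 CPM, with overlap. Cdk8 and Gphn had log2 fold changes of 0.55 and 0.31, and of 0.40 and 0.06 without injured-father library 1.

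None of the lists of B cell genes held a call by edgeR between the father groups. Of 32 genes of receptor signalling tested, 27 had a positive log2 fold change (higher in offspring of injured fathers), with a median log2 fold change of 0.20 against -0.01 over all genes tested. The groups did not overlap for 9 of the 32 in the higher and 2 in the lower direction, beside 16.1% and 16.6% of all genes tested. Of 8 MHC class II genes 7 had a positive log2 fold change, with a median of 0.24. Among the 8, 3 did not overlap in the higher and 1 in the lower direction, beside 16.1% and 16.6% of all genes tested. H2-Eb1 was at 174 and 182 against 74.9 and 86.3 CPM (log2 fold change 1.16, SE 0.29, unadjusted p = 0.00145 by edgeR), and H2-Aa at 242 and 211 against 147 and 92. Cd74, from the same pathway, was at 686 and 786 against 695 and 690 CPM, and its groups overlapped. Cd79b was at 78.7 and 96.5 against 159 and 115 CPM, and Klf2, a factor of quiescent lymphocytes, at 74.2 and 104 against 156 and 144. Beside these values, all 9 cardiomyocyte genes tested and all 4 erythroid genes tested had negative log2 fold changes, with medians of -0.40 and -0.78. The same was so of all 4 pericyte and all 5 fibroblast genes tested (medians -0.38 and -0.16). The list sums overlapped between the groups for cardiomyocyte, erythroid (642 and 1802 against 2369 and 1282 CPM) and pericyte genes (566 and 511 against 422 and 1185). The fibroblast sums did not overlap (670 and 711 against 814 and 1219 CPM). Adipocyte genes summed to 133 and 32.2 CPM in B nuclei of the injured-father libraries and to 5.99 and 0 in the others. The part of these lists in the B cell values was not tested.

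The father effect in B nuclei was also set against that in macrophage nuclei of the same hearts, as a log2 difference of B minus macrophage. For MHC class II genes it was positive in 2 of 9 tested, with a median of -0.59, against 0.02 over all genes tested. The 11 genes of that list summed to 282 and 500 against 160 and 226 CPM in macrophage nuclei. In B nuclei they summed to 1992 and 1966 against 1698 and 1610 CPM. No gene of 8561 passed an adjusted p of 0.05 in the edgeR interaction test (0% called), and none of 16139 with DESeq2, while 358 and 49 had an unadjusted p under 0.05. The count of calls was 0 without injured-father library 1, and 5, 6 and 15 without injured-father library 2, uninjured-father library 1 and uninjured-father library 2.

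**Figure D5:**
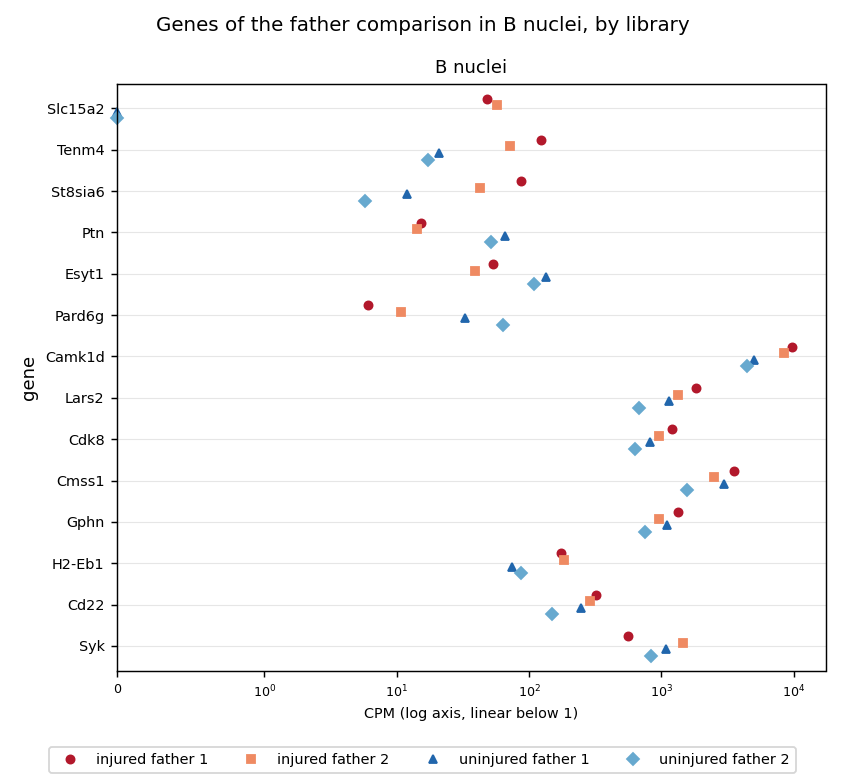
CPM of 14 genes (rows) in the summed B nuclei, 1 point per library, on a log axis that is linear below 1. Slc15a2 is at 48.4 and 57.2 CPM in the injured-father libraries and at 0 in the others, and Camk1d at 8390 and above against 4974 and below, whereas the Syk values of the groups overlap.

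Injured-father library 1, which gave 356 of the 829 members, differed from the other 3 in several B cell genes, as a description with no test. Cr2, which is highest on marginal zone B cells, was at 271 CPM there and at 75.1, 120 and 69 in the others. A Cr2 UMI was seen in 30.6% of its B nuclei against 11.7%, 14.1% and 9.18%, and after thinning to 1000 UMIs in 25.8% against 10.2%, 10.1% and 7.69%. In macrophage nuclei the unthinned share was 0.781% to 1.16%. Ccr6, a chemokine receptor of mature and memory B cells, was at 80.2 CPM against 17.9, 24 and 11.5, and came from 39 of its 356 B nuclei against 1.02% to 3.76% of the others. Cd72, an inhibitory co-receptor, was at 171 against 69 to 80.8 CPM. In the other direction Syk was at 563 CPM against 1466, 1075 and 828.

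The same library also differed in genes that are not of B cells. Acaca, which makes the first intermediate of fatty acid synthesis, was at 387 CPM in its B nuclei against 69 to 100 in the others, and at 630 CPM in its T/NK nuclei against 158 or less. The adipocyte sum given above was highest in its B nuclei, whereas in T/NK nuclei it was 189, 480, 0 and 0 CPM and in macrophage nuclei 70.4, 49.5, 4.29 and 0. In T/NK and macrophage nuclei, as in B nuclei, both injured-father libraries lay above both others. Haemoglobin genes were lower, with Hba-a2 at 154 CPM against 357 to 493. Cr2, unlike Acaca, was near 0 in its T/NK (4.55 CPM) and macrophage nuclei (3.61 CPM). Over 2447 genes with a mean of at least 100 CPM in B nuclei, 8 were over 2 times the highest other library and 3 under 0.5 times the lowest in this library. The like counts were 11 and 15 in uninjured-father library 2, the shallowest.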

How the data were processed

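Nuclei of 4 hearts were measured with a droplet kit that reads the 3 prime end of transcripts, with a target of 10000 nuclei per library. The authors deposited whole-number UMI counts, not normalized, and the file headers name Cell Ranger 6.0.1. Seurat 4.0 is named in the submitters' processing notes. The genome build is not given in the sources used here. Of 21884 features, 21779 identifiers are in GENCODE M21, and 19 symbols name more than 1 feature. Without stated strand settings, reads of overlapping and antisense genes may mix.

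The members, the gene lists and the genes looked up were chosen with earlier results of these data known. T/NK nuclei had 3 or more UMIs over 5 T cell genes that include Themis, Bcl11b, Skap1 and Cd247, and macrophage nuclei 3 or more over Mrc1, F13a1, Mertk, Csf1r and Adgre1, each from at least 2 genes, with 1 or fewer over markers of the other classes. Nuclei meeting the B rule were left out of both. Doublets were marked by Scrublet (scanpy 1.11.5) and removed only in an alternative. Counts were summed per library and class, so the heart is the replicate. Genes were filtered with filterByExpr (minimum count 10), scaled by TMM and tested with edgeR 4.0.16 in R 4.3.3 (two-sided, Benjamini-Hochberg over all genes tested), and genes used by a rule were left out. Comparisons of classes had the library as a block. Standard errors (SE) were derived from the test as the size of the log2 fold change over the root of its F value. CPM values are UMIs per 1000000 in the sum, without TMM. The code was tested on simulated counts.

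Genes named were the 15 highest in B nuclei by the smaller of both log2 fold changes (called in both, at least 50 CPM, higher in 4 of 4 libraries, not predicted genes), the 6 lowest, the 3 smallest p per direction between fathers, 6 genes seen earlier and members of the lists. Genes that set injured-father library 1 apart (Acaca and Hba-a2), and DESeq2 1.42.0, doublet, threshold, depth, filter and leave-one-out alternatives are described where they bear on a result. CPM are not divided by gene length, so levels are compared within a gene only. Some genes of the lists are counted but not reported here by name.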

Additional observations from a re-analysis of the deposited data

How the results depend on the processing

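The gene comparisons were recomputed with DESeq2, with no filter on low counts, without Scrublet doublets, with 5 or more marker UMIs, with 1000 or more UMIs, with at least 1 Pax5 UMI and without each library, and the share with all nuclei as denominator, thinned, without doublets, with both marker settings and without each library. Ptn and Pard6g did not pass the filter under some settings and have no value there. The difference in the share of B nuclei was 1.21 points, and without a library ranged from -0.271 (without injured-father library 1) to 2.70. The father comparison had 0 calls, 19 with no filter (18 higher, 1 lower) and 0 to 37 without a library. DESeq2 gave 475 calls against T/NK nuclei (742 by edgeR) and 1318 against macrophage nuclei (2058 by edgeR). Without a library these counts were 577 to 811 and 1599 to 2083. The test of the difference between classes had 0 calls, 6 with no filter, 4 without doublets and 0 to 15 without a library. The causes of these moves were not tested. Of 117 values of named genes between fathers 109 kept their direction and side of the threshold and 8 passed it, and all 210 values in each class comparison kept both. The labels number the libraries 1 and 2 in both groups. Deviations of same-numbered libraries had a correlation of -0.06 over 5940 genes. It rests on a single difference per group, so it cannot show whether hearts were paired. The sources used here do not say that the numbers pair hearts, and the main comparison has no block. A replicate block gave 5 calls in the father comparison, all higher (Slc15a2, Fgf12, Acaca, Tenm4 and St8sia6), and 0 in the difference between classes. With 98 to 356 B nuclei a library, a count of 0 allows 4.54 to 17.3 CPM in a single library.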
